A study of Homo sapiens with 6 samples.

Results

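The genes described here are 48 genes that carry cells from the end of G1 through S phase, the part of the cell cycle in which the genome is copied. They were taken from the gene tables by NCBI Gene ID, and all 48 symbols matched 1 row each of the 25702 rows in every table. The rule used names and no expression value, but the list of names was drawn up with earlier results of these data known. Poly A RNA had been sequenced from K562, an established human line derived from chronic myeloid leukaemia in blast crisis, in 3 groups of 2 libraries. Cells were transiently transfected by nucleofection with a pCMV-HA plasmid, in which a cytomegalovirus promoter drives an HA-tagged protein. In the EV group the plasmid was empty, in the MXD3 group it carried wild-type MXD3, and in the STIM1::MXD3 group it carried a fusion transcript found in childhood acute myeloid leukaemia that joins the start of STIM1 to MXD3 and keeps the DNA-binding domain of MXD3. Both libraries of a group were described as independent transfections, and the labels record no further treatment. Total counts per library ran from 53048343 to 63835779. Every member passed the filter on low counts, and single member counts ran from 489 to 50238. The part of counting error in the spread between libraries was not tested.

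The labels and the cell line were checked first. MXD3 stood at 9.33 and 11.7 counts-per-million (CPM, scaled by TMM) in EV, between 2162 and 2523 CPM with MXD3, and at 1975 and 1849 CPM with the fusion. STIM1 stood at 471 and 453 CPM with the fusion and between 159 and 205 CPM in the other libraries. All 10 erythroid genes typical of K562 were read in every library, from 34.03 CPM for EPOR to 4697 CPM for HBE1, although HBG1 and HBG2 are near-identical copies whose separate counts are uncertain. Of the 16 markers of T cells, B cells, monocytes, fibroblasts and epithelium, EPCAM (77.9 to 100.5 CPM), LYZ (21.2 to 27.04 CPM) and CD3D (13.4 to 19.8 CPM) were read clearly, MS4A1 and KRT5 were at 0 in all libraries, and the other 11 stayed at or under 2.83 CPM.

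Several steps lead into S phase. Cyclin E with CDK2 takes part in inactivating the retinoblastoma protein, which frees the activating E2F factors to switch on the genes for DNA synthesis. The atypical factors E2F7 and E2F8 later switch the same genes off. In G1 the origin recognition complex, CDC6 and CDT1 load the ring-shaped MCM helicase on origins, and geminin keeps CDT1 from doing so again in S phase. CDC45, GINS and MCM10 then turn the loaded ring into an active helicase, behind which primase, the polymerases alpha, delta and epsilon, the sliding clamp PCNA, its loader RFC and the single-strand binding protein RPA make new DNA. MXD3 is a basic helix-loop-helix leucine zipper protein of the MYC network that pairs with MAX at the E-box CACGTG. MYC itself is known to drive cells into S phase. The paper describes MXD3 as an antagonist of MYC, and the fusion as without the putative repression domain at the start of MXD3.

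With either construct most of these genes had somewhat higher transcript levels than in EV, by small amounts, and no single member passed the edgeR test across all genes. With MXD3, 42 of 48 members were higher and 6 lower. Their median log2 fold change was 0.17, where the median over all 15431 genes tested was 0.00 and 50.2% of them were higher. With STIM1::MXD3, 43 members were higher and 5 lower, with a median of 0.13 against 0.01 over all genes, of which 52.1% were higher. The 6 members furthest above EV were E2F2, CCNE2, GINS1, FEN1, CCNE1 and E2F7 with MXD3, and CCNE2, GINS1, POLE2, FEN1, E2F2 and PCNA with the fusion, by at most 1.46-fold. These comparisons share the EV libraries, and EV replicate 1 was the lowest of the 6 libraries for 32 of 48 members (66.7%), against 19.3% of all genes. Without EV replicate 1 the medians of members were 0.09 with MXD3 and 0.08 with the fusion, against 0.017 and 0.025 over all genes. Without EV replicate 2 they were 0.29 and 0.23, against 0.008 and 0.018 over all genes. In bulk RNA, a larger share of cells in S phase and more of these transcripts per cell cannot be told apart.

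**Figure D1:**
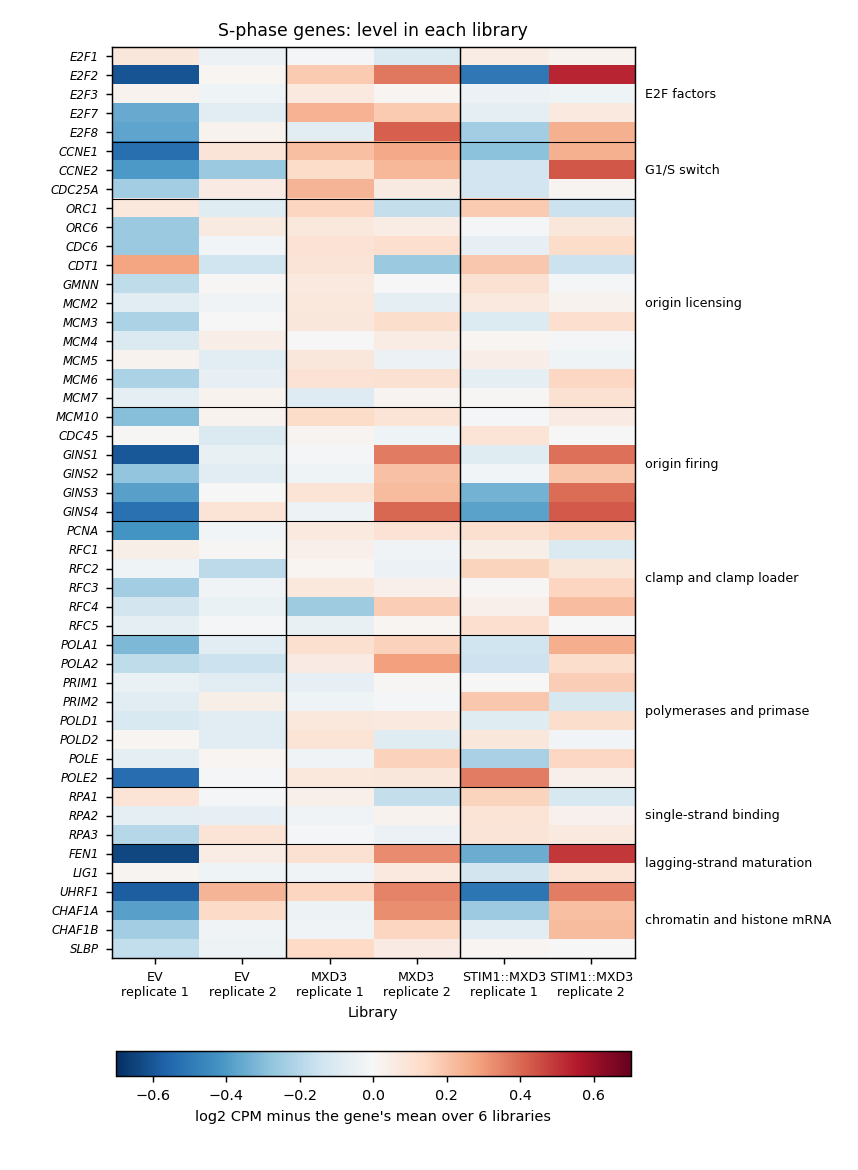
Level of each of the 48 members (rows, ordered by role) in each of the 6 libraries (columns), as log2 CPM minus the mean of that gene over the 6 libraries, with blue below and red above that mean. EV replicate 1 is the lowest library for 32 members and STIM1::MXD3 replicate 2 the highest for 19.

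Promoter sequence was at hand for most of these genes, since 41 of 48 members matched at least 1 start site in the RefSeq promoter table (GRCh38.p14), which gives 250 bases before to 50 bases after each start. CCNE2, E2F8, GINS4, MCM4, MCM5, RPA2 and RPA3 had no entry there. The strict E2F motifs TTTCCCGC, TTTGGCGC, TTTCGCGC and TTTGCCGC, searched on both strands, stood in the windows of 22 of the 41 members (53.7%), where 3.99% of 27305 genes with a window held one. Known E2F targets were among the genes listed as members, so a high share was partly built into the list. The E-box CACGTG, which reads the same on both strands, was found in 7 members (17.1%; 8.77% of all genes). CCAAT, the NF-Y motif, was in 25 (61%; 39.7% of all genes), and TTTGAA, the core of the cell cycle homology region of G2 and mitotic genes, in 1 member, E2F3 (2.44%; 18.2% of all genes). For comparison, of 22 G2 and mitosis genes with a window, 3 held the E2F motifs (13.6%), 4 the E-box (18.2%), 19 CCAAT (86.4%) and 16 TTTGAA (72.7%). Of 33 other replication genes with a window, 9 held the E2F motifs (27.3%), 5 the E-box (15.2%), 19 CCAAT (57.6%) and 4 TTTGAA (12.1%). A match is a description of these letters and not a site that was measured.

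Stretches of 100 bases from 10 of these windows are shown 5′ to 3′ in the direction of transcription, in RefSeq sequence of GRCh38.p14, with matches of the E2F motifs and the E-box in capitals and any CCAAT left in lower case. E2F1, CDT1, MCM6, GINS2 and PCNA are shown for their E2F motifs, of which MCM6 carries 2 pairs of overlapping matches, MCM7 for an E2F motif beside an E-box, and MCM2, FEN1, CHAF1A and RPA1 for an E-box. All run from -100 to -1 relative to the annotated start except MCM6, which runs from -160 to -61. They lie at chr20:33686386-33686485 (E2F1, minus strand), chr16:88803689-88803788 (CDT1, plus strand), chr2:135876504-135876603 (MCM6, minus strand), chr16:85688955-85689054 (GINS2, minus strand), chr20:5126623-5126722 (PCNA, minus strand), chr7:100101398-100101497 (MCM7, minus strand), chr3:127598311-127598410 (MCM2, plus strand), chr11:61792811-61792910 (FEN1, plus strand), chr19:4402540-4402639 (CHAF1A, plus strand) and chr17:1829905-1830004 (RPA1, plus strand).
E2F1: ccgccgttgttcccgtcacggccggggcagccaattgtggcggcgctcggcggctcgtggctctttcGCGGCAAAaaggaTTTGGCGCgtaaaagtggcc
CDT1: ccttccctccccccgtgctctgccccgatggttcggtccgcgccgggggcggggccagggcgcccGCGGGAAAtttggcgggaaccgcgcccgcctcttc
MCM6: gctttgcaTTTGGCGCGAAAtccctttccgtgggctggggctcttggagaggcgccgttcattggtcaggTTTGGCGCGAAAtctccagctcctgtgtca
GINS2: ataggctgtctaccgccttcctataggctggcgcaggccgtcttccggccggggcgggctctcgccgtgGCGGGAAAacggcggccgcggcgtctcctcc
PCNA: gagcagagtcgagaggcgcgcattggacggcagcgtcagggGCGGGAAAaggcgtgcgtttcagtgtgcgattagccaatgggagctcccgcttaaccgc
MCM7: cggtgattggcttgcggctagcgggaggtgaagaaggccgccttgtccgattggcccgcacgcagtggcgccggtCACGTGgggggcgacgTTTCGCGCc
MCM2: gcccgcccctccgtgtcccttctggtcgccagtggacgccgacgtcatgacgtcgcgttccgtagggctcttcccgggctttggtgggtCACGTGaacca
FEN1: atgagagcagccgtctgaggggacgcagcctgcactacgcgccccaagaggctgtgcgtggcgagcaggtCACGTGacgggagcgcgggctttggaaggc
CHAF1A: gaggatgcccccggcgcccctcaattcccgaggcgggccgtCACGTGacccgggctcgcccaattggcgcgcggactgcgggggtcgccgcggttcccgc
RPA1: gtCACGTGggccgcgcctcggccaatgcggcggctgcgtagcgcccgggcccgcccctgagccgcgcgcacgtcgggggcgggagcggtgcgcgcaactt
Of these, E2F1 holds TTTGCCGC as its reverse complement ahead of TTTGGCGC, and CDT1, GINS2 and PCNA each hold TTTCCCGC as its reverse complement. The 7 members with an E-box were E2F3, GMNN, MCM2, MCM7, RPA1, FEN1 and CHAF1A. Of these, E2F3, GMNN, MCM2 and MCM7 also held an E2F motif, for E2F3 and GMNN only in the window of another annotated start. MCM2 and MCM7 held both in the same window, MCM2 with its E2F motif just past the start and outside the stretch shown.

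**Figure D2:**
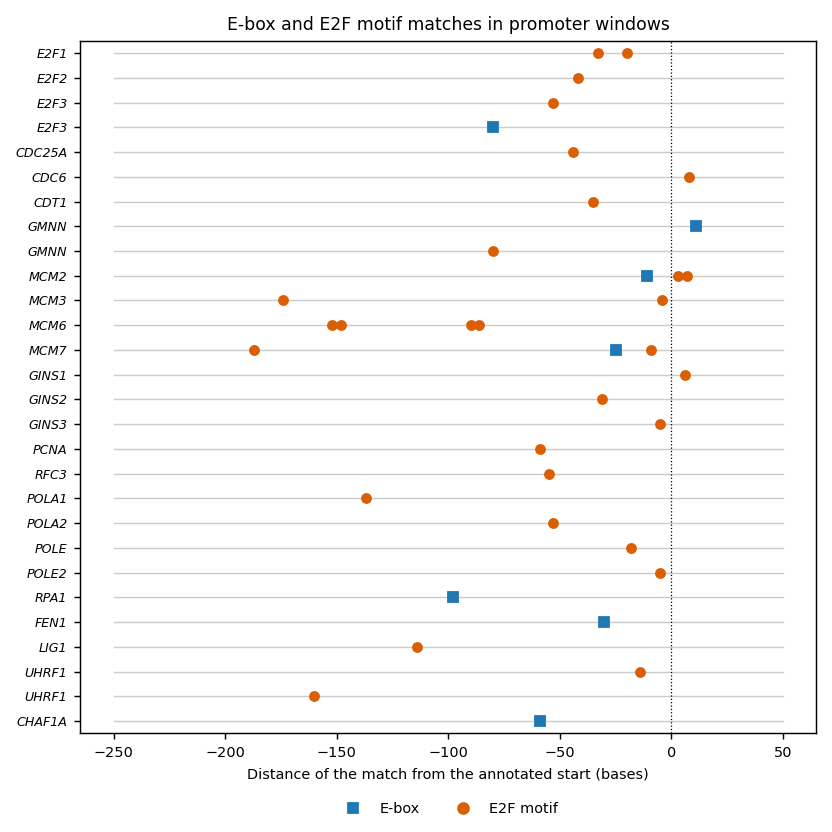
Positions of the E-box CACGTG (blue squares) and of the E2F motifs (orange circles) in the promoter windows of members that hold either, as the distance in bases of the first base of the match from the annotated start (dotted line), 1 grey line per window. A gene with 2 lines has matches in the windows of 2 annotated starts. Most of the E2F matches lie within 100 bases of the start.

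The E2F genes include activators and repressors of the program. E2F1 stood at 56.1 and 51.6 CPM in EV, 52.7 and 49.6 CPM with MXD3, and 55.2 and 54.1 CPM with STIM1::MXD3. E2F1, an activating factor and itself an E2F target, was nearly level, with log2 fold changes of -0.07 ± 0.12 (SE) with MXD3 and 0.02 ± 0.12 with the fusion. E2F2 measured 21.7 and 33.4 CPM in EV, 37.6 and 42.7 CPM with MXD3, and 23.4 and 47.9 CPM with STIM1::MXD3. E2F2, the second activator, had both MXD3 libraries above both EV libraries. With the fusion it spanned more than the groups differed, since the lowest fusion library lay beside the lowest EV library. The log2 fold change of E2F2 with MXD3, 0.54 ± 0.35, was the largest of the 48 but had an interval from -0.28 to 1.37. E2F3 was read at 110.3 and 106 CPM in EV, 114 and 109 CPM with MXD3, and 105 and 106 CPM with STIM1::MXD3. E2F3 was level within 105 to 114 CPM, and its fusion libraries lay just under both EV libraries.

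E2F7 and E2F8 are the atypical repressors that close the E2F program. E2F7 had 23.4 and 28.4 CPM in EV, 35.4 and 33.9 CPM with MXD3, and 28.5 and 31.3 CPM with STIM1::MXD3. Both MXD3 libraries lay above both fusion libraries and these above both EV libraries. The log2 fold change of E2F7 with MXD3, 0.42 ± 0.15 (SE; 95% interval 0.06 to 0.78), had the smallest p-value of all members in any comparison (unadjusted p = 0.0273, Benjamini-Hochberg adjusted p = 0.999, edgeR quasi-likelihood fit). E2F7 (Gene ID 144455) lies on the minus strand of chromosome 12 at positions 77415028 to 77459349 (GRCh37). E2F8 stood at 18.1 and 23.8 CPM in EV, 22.2 and 31.3 CPM with MXD3, and 19.8 and 27.9 CPM with STIM1::MXD3. In every group E2F8 was higher in replicate 2, and the groups overlapped.

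For both cyclin E genes and for CDC25A, both MXD3 libraries lay above both EV libraries. CCNE1 measured 13.6 and 20.9 CPM in EV, 22.7 and 23.6 CPM with MXD3, and 16.1 and 23.3 CPM with STIM1::MXD3. CCNE1, the cyclin E1 gene, had both MXD3 libraries above both EV libraries, with a log2 fold change of 0.42 ± 0.26 (SE), whereas the fusion libraries lay on both sides of EV replicate 2. CCNE2 was read at 9.60 and 10.6 CPM in EV, 13.9 and 14.9 CPM with MXD3, and 11.5 and 17.1 CPM with STIM1::MXD3. For CCNE2, cyclin E2, all 4 construct libraries lay above both EV libraries. Its log2 fold change was 0.51 ± 0.22 (SE) with MXD3 (unadjusted p = 0.0571, adjusted p = 0.999, edgeR) and 0.50 ± 0.22 with the fusion (unadjusted p = 0.0586, adjusted p = 1.00, edgeR), the smallest p-value in the latter comparison. CDC25A had 50.4 and 62.1 CPM in EV, 70.3 and 62.4 CPM with MXD3, and 54.3 and 60.5 CPM with STIM1::MXD3. CDC25A, which activates CDK2, differed by 0.24 ± 0.15 with MXD3 and by 0.03 ± 0.15 with the fusion, and MXD3 replicate 2 was barely above EV replicate 2.

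Origin licensing held the most abundant members, with small differences between groups. Per kilobase of exon, mean levels over the 6 libraries were highest for MCM7 (149.9 CPM per kb) and CDT1 (137 CPM per kb). GINS3 (2.75), CCNE2 (2.94), POLA2 (3.23) and POLA1 (3.37 CPM per kb) were lowest on this scale. Exon length was the union of exons over all annotated transcripts, 12006 bases for POLA2 and 15547 for POLA1, and a long union lowers the value. Before that division, POLA2 (38.8 CPM) and POLA1 (52.4 CPM) stood well above CCNE2 (12.9 CPM) and GINS3 (14.05 CPM). Of the 11 licensing genes, 9 were higher with MXD3 and 10 with the fusion, with median log2 fold changes of 0.06 and 0.10. None of these passed the threshold.

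ORC1 stood at 155 and 139 CPM in EV, 163 and 131 CPM with MXD3, and 167 and 133 CPM with STIM1::MXD3. ORC1, the large ATPase subunit of the origin recognition complex, was lower in replicate 2 of every group, and its groups overlapped. ORC6 measured 31.8 and 39.6 CPM in EV, 40.0 and 39.4 CPM with MXD3, and 37.7 and 40.1 CPM with STIM1::MXD3. In ORC6, the smallest subunit of that complex, EV replicate 1 stood apart from the other 5 libraries. CDC6 was read at 100 and 118 CPM in EV, 128 and 129.8 CPM with MXD3, and 115 and 131 CPM with STIM1::MXD3. CDC6, the loading ATPase, had both MXD3 libraries above both EV libraries, by 0.24 ± 0.14 on the log2 scale (SE), and the fusion libraries straddled EV replicate 2.

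CDT1 and its inhibitor geminin set how much licensing activity is free. CDT1 had 452 and 338 CPM in EV, 397 and 311 CPM with MXD3, and 425 and 336 CPM with STIM1::MXD3. CDT1 (NCBI Gene 81620, on the plus strand of chromosome 16 from 88870197 to 88875666 in GRCh37) was the member with the lowest log2 fold change with MXD3, -0.16 ± 0.20 (SE), but in every group replicate 1 was the higher library and the groups overlapped. GMNN stood at 73.5 and 83.5 CPM in EV, 87.0 and 83.3 CPM with MXD3, and 89.5 and 82.5 CPM with STIM1::MXD3. GMNN, the geminin gene, differed by 0.12 ± 0.13 with MXD3 and 0.13 ± 0.13 with the fusion, and only EV replicate 1 stood below the others. The log2 ratio of CDT1 to GMNN was 2.62 and 2.02 in EV, 2.19 and 1.90 with MXD3, and 2.25 and 2.03 with STIM1::MXD3. EV replicate 1 gave the highest ratio, and the values of the groups overlapped. The difference between groups in this ratio was not tested.

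Among the 6 subunits of the MCM ring, MCM6 and MCM3 differed most with MXD3. MCM2 measured 214 and 223 CPM in EV, 238 and 217 CPM with MXD3, and 238 and 231 CPM with STIM1::MXD3. MCM2 overlapped between EV and MXD3, and both fusion libraries lay above both EV libraries, by 0.10 ± 0.12 on the log2 scale (SE). MCM3 was read at 200.2 and 232 CPM in EV, 246 and 254 CPM with MXD3, and 218 and 253 CPM with STIM1::MXD3. MCM3 had both MXD3 libraries above both EV libraries, with a log2 fold change of 0.21 ± 0.14. MCM4 had 338 and 374 CPM in EV, 364 and 376 CPM with MXD3, and 367 and 361 CPM with STIM1::MXD3. MCM4 overlapped in all 3 groups.

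MCM5 stood at 197 and 183 CPM in EV, 204 and 188 CPM with MXD3, and 199.8 and 189.9 CPM with STIM1::MXD3. MCM5 overlapped between groups, with log2 fold changes of 0.05 ± 0.12 and 0.04 ± 0.12 (SE). MCM6 measured 167 and 187 CPM in EV, 209 and 209 CPM with MXD3, and 185 and 215 CPM with STIM1::MXD3. MCM6 had both MXD3 libraries above both EV libraries, by 0.24 ± 0.13 on the log2 scale, and the fusion differed from EV by 0.18 ± 0.13. MCM7 was read at 709 and 756 CPM in EV, 696 and 754 CPM with MXD3, and 746 and 799 CPM with STIM1::MXD3. MCM7, the most abundant member, was below EV by a log2 difference of -0.01 ± 0.12 with MXD3 and above it by 0.08 ± 0.12 with the fusion, both within the spread between libraries. Its exons overlap those of AP4M1, so part of its count is uncertain.

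**Figure D3:**
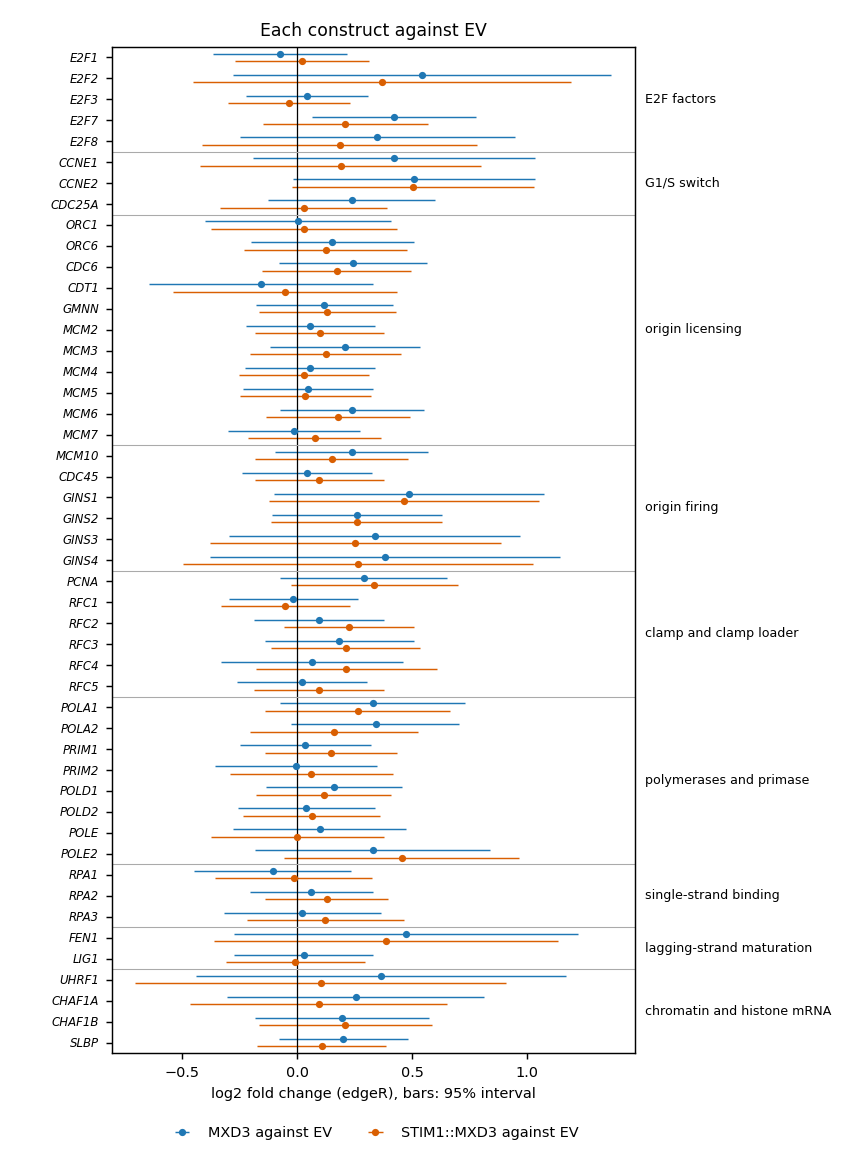
Log2 fold change of each member (rows, by role) with MXD3 (blue) and with STIM1::MXD3 (orange) against EV, from 1 edgeR fit over all 6 libraries, with bars for the 95% intervals. The intervals span 0 for all members except E2F7 with MXD3, whose interval runs from 0.06 to 0.78, and most points lie right of 0.

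All 6 firing factors were higher with each construct, with median log2 fold changes of 0.30 with MXD3 and 0.26 with the fusion. So were CCNE1, CCNE2 and CDC25A, and UHRF1, CHAF1A, CHAF1B and SLBP. Of all members, 87.5% were higher with MXD3 and 89.6% with the fusion. In both pairs of same-numbered libraries all 6 firing factors were higher with each construct, as were UHRF1, CHAF1A, CHAF1B and SLBP. Of all 15431 genes, 4719 were so with MXD3 and 4189 with the fusion. Both MXD3 libraries lay above both EV libraries for 4 of the 6 firing factors (66.7%, against 16.2% of all genes). Both fusion libraries did so for 1 (16.7%, against 12.0% of all genes). MCM10 had 80.7 and 101 CPM in EV, 108 and 106 CPM with MXD3, and 98.5 and 103 CPM with STIM1::MXD3. MCM10, which helps open the duplex, had both MXD3 libraries above both EV libraries, by 0.24 ± 0.14 on the log2 scale (SE). CDC45 stood at 262 and 243 CPM in EV, 264 and 256 CPM with MXD3, and 279 and 261 CPM with STIM1::MXD3. CDC45, by far the most abundant of these genes, differed little, by 0.04 ± 0.12 and 0.10 ± 0.12.

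The 4 GINS genes encode the subunits of 1 complex that joins CDC45 and MCM. GINS1 measured 25.7 and 37.4 CPM in EV, 38.5 and 49.9 CPM with MXD3, and 36.5 and 50.6 CPM with STIM1::MXD3. GINS1 (NCBI Gene 9837, on the plus strand of chromosome 20 from 25371644 to 25433336 in GRCh37) had a log2 fold change of 0.49 ± 0.25 (SE) with MXD3 (unadjusted p = 0.0907, edgeR) and 0.47 ± 0.25 with the fusion (unadjusted p = 0.103, edgeR). EV replicate 1 was the lowest library, EV replicate 2 and the first library of each construct were close together, and the second library of each construct was the highest. GINS2 was read at 34.2 and 39.4 CPM in EV, 40.5 and 47.7 CPM with MXD3, and 40.8 and 47.3 CPM with STIM1::MXD3. All 4 construct libraries lay above both EV libraries for GINS2, by 0.26 ± 0.16 and 0.26 ± 0.16. GINS3 had 10.6 and 13.8 CPM in EV, 14.7 and 16.1 CPM with MXD3, and 11.0 and 18.1 CPM with STIM1::MXD3. GINS4 stood at 18.8 and 28.8 CPM in EV, 26.4 and 35.7 CPM with MXD3, and 20.8 and 36.4 CPM with STIM1::MXD3. For GINS3 and GINS4 the first fusion library lay with the EV libraries and the second was the highest of all. On the log2 scale the fusion libraries differed by 0.722 and 0.805, more than the fusion differed from EV (0.253 and 0.265).

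Among the genes of the clamp and its loader, PCNA differed most. PCNA measured 69.5 and 91.5 CPM in EV, 97.4 and 99.5 CPM with MXD3, and 100.4 and 103 CPM with STIM1::MXD3. PCNA (NCBI Gene 5111, on the minus strand of chromosome 20 from 5095599 to 5107272 in GRCh37) had all 4 construct libraries above both EV libraries, with log2 fold changes of 0.29 ± 0.15 (SE) with MXD3 and 0.34 ± 0.15 with the fusion (unadjusted p = 0.0650, adjusted p = 1.00, edgeR). EV replicate 1 was well below the other 5 libraries, and 4 named PCNA pseudogenes make its count uncertain. RFC2 was read at 82.3 and 74.1 CPM in EV, 85.0 and 81.9 CPM with MXD3, and 93.6 and 89.2 CPM with STIM1::MXD3. RFC2, a loader subunit, was highest with the fusion, by 0.23 ± 0.12 against EV (unadjusted p = 0.102, edgeR) and 0.13 ± 0.12 against MXD3. Log2 fold changes of the other loader genes, RFC1, RFC3, RFC4 and RFC5, ran from -0.02 to 0.18 with MXD3 and from -0.05 to 0.21 with the fusion. Both fusion libraries lay above both EV libraries for 5 of the 6 clamp and loader genes (83.3%, against 12.0% of all genes), all but RFC1. Both MXD3 libraries did so for 2 of the 6 (33.3%, against 16.2% of all genes).

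Polymerase alpha starts each strand together with primase, and its libraries with MXD3 lay above those of EV. POLA1 had 41.8 and 49.2 CPM in EV, 56.0 and 58.2 CPM with MXD3, and 47.2 and 62.0 CPM with STIM1::MXD3. POLA1, its catalytic subunit, differed by 0.33 ± 0.17 (SE) with MXD3 (unadjusted p = 0.0947, edgeR) and 0.26 ± 0.17 with the fusion. POLA2 stood at 34.1 and 34.7 CPM in EV, 40.0 and 47.0 CPM with MXD3, and 34.8 and 42.0 CPM with STIM1::MXD3. Both MXD3 libraries and both fusion libraries lay above EV for POLA2, the B subunit, although the first fusion library only just exceeded EV replicate 2. Its log2 fold change with MXD3 was 0.34 ± 0.15 (unadjusted p = 0.0631, adjusted p = 0.999, edgeR). PRIM1 measured 82.5 and 80.7 CPM in EV, 81.8 and 85.6 CPM with MXD3, and 85.0 and 95.8 CPM with STIM1::MXD3. PRIM1, which makes the RNA primer, was level except in the second fusion library, the highest.

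POLE2 was read at 11.6 and 16.6 CPM in EV, 17.7 and 17.8 CPM with MXD3, and 21.5 and 17.2 CPM with STIM1::MXD3. POLE2, the B subunit of the leading-strand polymerase epsilon, had all 4 construct libraries above both EV libraries, with log2 fold changes of 0.33 ± 0.22 (SE) with MXD3 and 0.45 ± 0.22 with the fusion (unadjusted p = 0.0744, edgeR). EV replicate 1 was the lowest and the first fusion library the highest. The remaining genes of this group, POLD1, POLD2, POLE and PRIM2, had log2 fold changes from -0.01 to 0.16 with MXD3 and from 0.00 to 0.12 with the fusion.

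RPA, which coats single-stranded DNA, was close to level. RPA3 had 34.9 and 42.8 CPM in EV, 39.9 and 39.0 CPM with MXD3, and 42.6 and 42.0 CPM with STIM1::MXD3. RPA3, its smallest subunit, differed by 0.02 ± 0.14 with MXD3 and 0.12 ± 0.14 with the fusion (SE), and EV held both the lowest and the highest library. RPA1 had log2 fold changes of -0.11 ± 0.14 and -0.01 ± 0.14, and RPA2 of 0.06 ± 0.11 and 0.13 ± 0.11.

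FEN1 stood at 78.4 and 126 CPM in EV, 131 and 153 CPM with MXD3, and 95.7 and 172 CPM with STIM1::MXD3. FEN1, the flap endonuclease that trims Okazaki fragments, ranged over 2-fold between libraries, and its first library was the lower in all 3 groups. Both MXD3 libraries lay above both EV libraries, by 0.47 ± 0.32 on the log2 scale (SE), but the first fusion library lay between the EV libraries. LIG1, the ligase that seals these fragments, stayed between 78.8 and 92.01 CPM.

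UHRF1 measured 41.4 and 72.8 CPM in EV, 68.5 and 78.5 CPM with MXD3, and 43.4 and 79.0 CPM with STIM1::MXD3. UHRF1, which brings maintenance methylation to new DNA, split into 2 low libraries, the first of EV and of the fusion, and 4 libraries from 68.5 to 79.04 CPM. Its log2 fold changes of 0.36 ± 0.34 (SE) with MXD3 and 0.10 ± 0.34 with the fusion are smaller than that split. SLBP was read at 116 and 127 CPM in EV, 144 and 135 CPM with MXD3, and 132 and 129.9 CPM with STIM1::MXD3. SLBP, the stem-loop binding protein of histone mRNA, had all 4 construct libraries above both EV libraries, by 0.20 ± 0.12 with MXD3 and 0.11 ± 0.12 with the fusion. The chromatin assembly genes CHAF1A and CHAF1B differed by 0.26 ± 0.24 and 0.19 ± 0.16 with MXD3, and by 0.10 ± 0.24 and 0.21 ± 0.16 with the fusion.

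**Figure D4:**
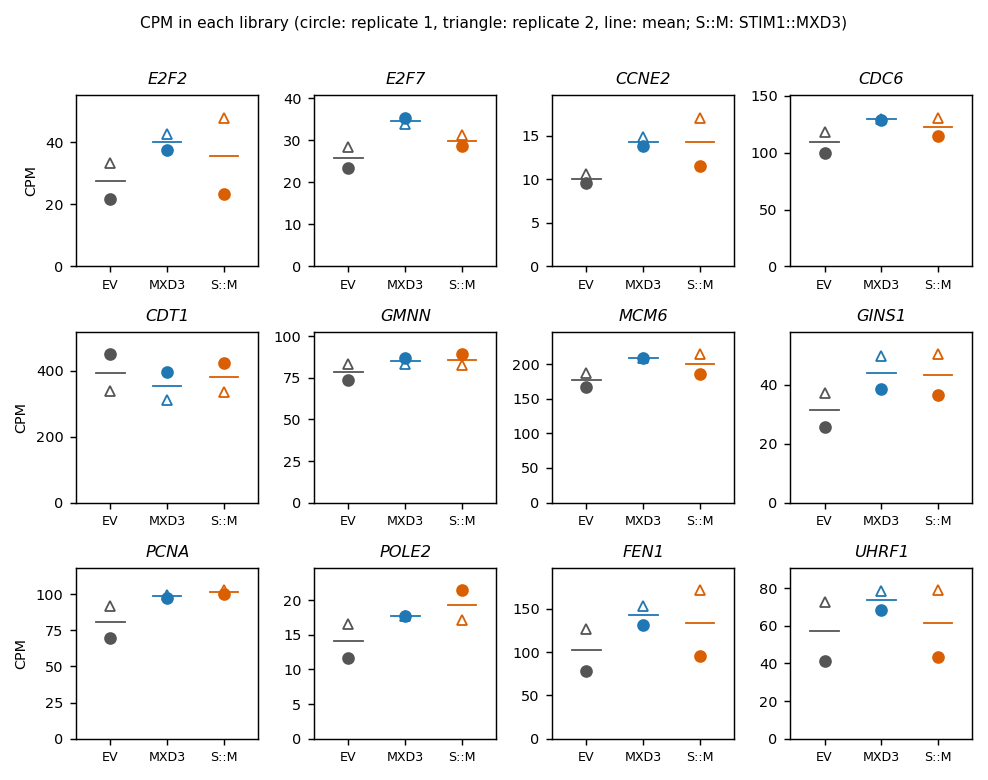
CPM of 12 members in each library (circles replicate 1, triangles replicate 2, lines group means; S::M is STIM1::MXD3), with every axis starting at 0. PCNA and CCNE2 show all construct libraries above both EV libraries, while E2F2, FEN1 and UHRF1 show 1 low library in EV and 1 in STIM1::MXD3.

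The tests across all genes were read against what all genes did. With MXD3, 0 of 48 members passed the adjusted threshold of 0.05 (edgeR, Benjamini-Hochberg), where 0.00648% of all genes tested did, a single gene, MXD3. At an unadjusted p under 0.05 there was 1 member, E2F7, or about the share of all genes (1.86%). DESeq2 without a replicate term also called 0 members and gave 2 members at an unadjusted p under 0.05, where 2.09% of all genes had one. Both MXD3 libraries lay above both EV libraries for 22 members (45.8%), where 16.2% of all genes did so, and below them for 0 members, where 14.8% of all genes did so. The median was 0.24 between the libraries numbered 1 and 0.10 between those numbered 2. In both of these pairs 33 members were higher, as were 4719 of all 15431 genes.

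With STIM1::MXD3, 0 members passed the adjusted threshold (0.00648% of all genes, again MXD3 alone; edgeR) and 0 had an unadjusted p under 0.05, where 0.953% of all genes did; DESeq2 without a replicate term gave 0 in both counts (1.17% of all genes at the unadjusted threshold). Both fusion libraries lay above both EV libraries for 14 members (29.2%; 12.0% of all genes) and below them for 1 member, E2F3 (2.08%; 10.0% of all genes). Medians were 0.15 between the first libraries and 0.12 between the second. In both of these pairs 35 members were higher, as were 4189 of all 15431 genes. The median was 0.20 without STIM1::MXD3 replicate 1, 0.07 without STIM1::MXD3 replicate 2 and, as above, 0.08 and 0.23 without either EV library. All 4 construct libraries lay above both EV libraries for 9 members, namely E2F7, CCNE2, GINS2, PCNA, RFC3, POLA2, POLE2, RPA2 and SLBP, or 18.8% of members where 5.92% of all genes did so, and below them for 0 members.

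Between the constructs there was no common direction. Against MXD3, 20 members were higher with STIM1::MXD3 and 28 lower. Their median log2 fold change was -0.02, in a range from -0.26 for UHRF1 to 0.15 for RFC4. Here 0 members were called (edgeR), as were 0% of all genes, and 0 had an unadjusted p under 0.05, where 1.01% of all genes did; DESeq2 without a replicate term also gave 0 in both counts (1.11% of all genes at the unadjusted threshold). Both fusion libraries lay above both MXD3 libraries for 5 members (10.4%) and below for 5 (10.4%), about the shares of all genes, 10.9% and 10.2%. The sign of the median depended on single libraries, as it was 0.03 without STIM1::MXD3 replicate 1, 0.01 without MXD3 replicate 2, -0.06 without MXD3 replicate 1 and -0.09 without STIM1::MXD3 replicate 2. Smallest in p-value were E2F7 at -0.21 ± 0.15 (SE; unadjusted p = 0.206), CDC25A at -0.21 ± 0.15 (unadjusted p = 0.214), POLA2 at -0.18 ± 0.15 (unadjusted p = 0.278), RFC2 (unadjusted p = 0.310) and PRIM1 at 0.11 ± 0.12 (unadjusted p = 0.389), all with an adjusted p of 1.00 in edgeR. The median standard error of a member was 0.15 on the log2 scale, so differences of the size seen here were not detectable gene by gene.

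Members also differed between libraries of 1 group, least in MXD3. From replicate 1 to replicate 2 in EV, the log2 CPM of members differed by a median of 0.16, against -0.01 for all genes, and 36 of 48 members were higher in replicate 2. The median size of the difference over members, whatever its sign, was 0.17 in EV, 0.09 in MXD3 and 0.20 in STIM1::MXD3. Over all genes it was larger in each group, 0.23 in EV, 0.24 in MXD3 and 0.33 in STIM1::MXD3. Signed medians were 0.02 in MXD3 (28 members higher) and 0.14 in STIM1::MXD3 (30 members higher). In all 3 groups 21 members (43.8%; 28.6% of all genes) were higher in replicate 2 and 9 (18.8%; 30.2% of all genes) were lower. The differences of UHRF1 were 0.81 in EV, 0.20 in MXD3 and 0.86 in STIM1::MXD3, those of E2F2 were 0.62, 0.18 and 1.03, and those of FEN1 were 0.68, 0.22 and 0.84. In the other direction, CDT1 differed by -0.42, -0.35 and -0.34 in the same order. Of the 10 erythroid genes, 8 were lower in replicate 2 in all 3 groups, with medians of -0.17, -0.19 and -0.52 over the 10, and the part of this shift in the differences above was not tested.

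**Figure D5:**
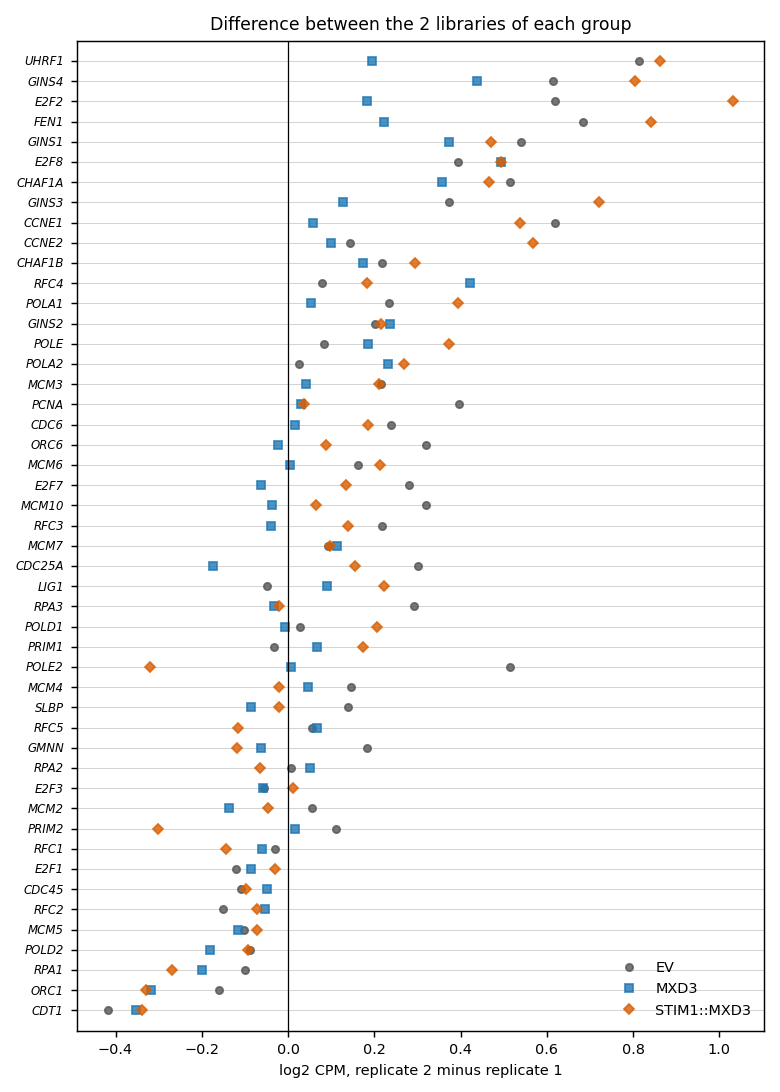
Difference in log2 CPM between replicate 2 and replicate 1 of each group for each of the 48 members (grey circles EV, blue squares MXD3, orange diamonds STIM1::MXD3), ordered by the mean of the 3 values. UHRF1, GINS4, E2F2 and FEN1 are at the top with replicate 2 higher in all 3 groups, and CDT1 and ORC1 are at the bottom with replicate 2 lower.

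By promoter class, the 22 members with an E2F motif had a median log2 fold change of 0.24 with MXD3 (19 higher) and 0.14 with the fusion (18 higher), and the 19 without one had 0.09 (16 higher) and 0.12 (17 higher). The 7 members with an E-box had medians of 0.06 with MXD3 and 0.10 with the fusion (5 higher in each), and the 34 without one had 0.20 and 0.15 (30 higher in each). The range of the E-box members with MXD3, from -0.11 for RPA1 to 0.47 for FEN1, lay within that of the others, -0.16 to 0.54, and the difference between classes was not tested.

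Genes of the same pathways outside the 48 gave the following values in the same fit. Of 42 other replication genes, 30 were higher and 12 lower with each construct, with medians of 0.08 and 0.07, and 0 were called (edgeR). POLD3, a polymerase delta subunit, had the only unadjusted p under 0.05 among them, with MXD3 (log2 fold change 0.49, unadjusted p = 0.0204, adjusted p = 0.999, edgeR). It stood at 18.9 and 23.6 CPM in EV, 31.0 and 28.8 CPM with MXD3 and 23.7 and 27.1 CPM with the fusion. Its lowest MXD3 library therefore lay above its highest library in the other groups. Of 7 genes of nucleotide supply, 4 were higher with MXD3 (median 0.03) and all 7 with the fusion (median 0.14), where DUT, which keeps uracil out of DNA, stood at 124 and 125 CPM with the fusion and 108 and 111 CPM in EV. Of the 8 RB, DP and other E2F genes, 5 were higher with each construct (medians 0.01 and 0.02). Of 28 genes of G2 and mitosis, 14 were higher with MXD3 and 12 with the fusion, with medians of 0.00 and -0.02, and 0 genes of these 3 lists had an unadjusted p under 0.05 in either comparison with EV.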

How the data were processed

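Gene counts from RNA sequencing of 6 K562 libraries were analysed, 2 each of EV, MXD3 and STIM1::MXD3, grouped by their labels. The deposited values were raw read counts per gene under NCBI Gene IDs, 1 table per library. Per the submitters' processing notes, HISAT2 2.2.1, featureCounts 2.0.1 and hg19 were used. The annotation, strand setting and treatment of read pairs are not given in the sources used here, so counts of the 21 members whose exons overlap another gene and of the 9 with a named pseudogene are uncertain. Of 25702 IDs, 23696 (92.2%) were matched to a symbol, and the rest, which stayed in the library totals, held 0.225% to 0.276% of counts.

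Counts were filtered with filterByExpr (15431 genes kept), scaled by TMM and fitted in edgeR 4.0.16 (R 4.3.3) with its quasi-likelihood model, all 6 libraries together, a coefficient for each group and no covariate. Tests were two-sided. Benjamini-Hochberg adjustment covered all 15431 genes, and 0.05 was the threshold. Levels are CPM after TMM scaling, and log2 CPM used a prior count of 2. Intervals are 95% intervals of the fit. The fit was tested on simulated data whose known changes were larger than those of the members and which held no shift shared by replicate number. That test therefore does not show how the fit handles differences of the size seen here.

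The members and the other gene lists were chosen with earlier results of these data known, so lists are described by counts and medians without a test. Library values are given for a set list of cell cycle regulators and for the 5 members with the smallest p-value in each comparison. Of the other lists, only genes among the 3 smallest p-values were named, and GINS2 to GINS4, outside this rule, were given in each library to complete the complex, after their values were seen. Gene loci are in GRCh37 (GENCODE v44 lifted), promoters are RefSeq sequence in GRCh38.p14, and no coordinate was converted between them. Alternatives were a replicate block, DESeq2 1.42.0, other scalings and filters, counts divided by 2 (should both ends of read pairs have been counted), the 4 libraries compared alone, and leaving out each library.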

Additional observations from a re-analysis of the deposited data

How the results depend on the processing

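With 2 libraries a group and a median standard error of 0.15 on the log2 scale, the smaller member differences could not be told from the spread between libraries. In edgeR, 0 members were called in any of the 3 comparisons under any setting, whatever the scaling, the filter, the library left out or the block, and between the constructs the same held for DESeq2. Members above EV numbered 38 to 42 with MXD3 and 35 to 43 with STIM1::MXD3 over all settings. With 1 library left out, the lone library was assumed to vary like the other groups, and the median of members ran from 0.089 (without EV replicate 1) to 0.287 (without EV replicate 2) for MXD3 against EV, from 0.066 (without STIM1::MXD3 replicate 2) to 0.232 (without EV replicate 2) for STIM1::MXD3 against EV, and from -0.093 (without STIM1::MXD3 replicate 2) to 0.035 (without STIM1::MXD3 replicate 1) between the constructs. Without TMM scaling, the median of replicate 2 minus replicate 1 over members was 0.24 in EV and 0.24 in STIM1::MXD3, where the median of all genes moved to 0.08 and 0.11. No result changed from higher to lower past a threshold.

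The groups share the replicate numbers 1 and 2, which the labels do not tie to a day or batch. Across genes, how far libraries of the same number lay from the mean of their group correlated, with r of 0.27, 0.36 and 0.45 over all genes (EV and MXD3, EV and STIM1::MXD3, and both constructs), and 0.62, 0.71 and 0.79 over the 10250 genes whose mean CPM reached 5, a hint from the data and not from the design. With the replicate block in edgeR, members' medians were 0.175, 0.13 and -0.03, 0 members were called in each comparison (45, 3 and 1 of all genes were), and 21, 11 and 1 members had an unadjusted p under 0.05, where 13.9%, 8.5% and 6.49% of all genes did in the same fit. The lowest adjusted p of a member was that of GINS1, 0.0515 with MXD3 and 0.206 with the fusion (edgeR). DESeq2 with the replicate block called 3 members with MXD3, namely GINS1 (log2 fold change 0.50, adjusted p = 0.00357), FEN1 (0.52, adjusted p = 0.00994) and E2F2 (0.58, adjusted p = 0.0313), among 238 of all genes (1.54%). In that fit 1 member was called with STIM1::MXD3, GINS1 (0.46, adjusted p = 0.0422), among 19 of all genes (0.123%), and 0 between the constructs. DESeq2 without the block called 0 members in each comparison.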
